A study of Rattus norvegicus with 46 samples.

Results

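The interferon response genes described here are 41 named genes that cells switch on after an interferon or a virus is sensed. They were chosen by symbol, and 40 of the 41 were among the 23747 gene symbols of the deposited gene tables; Oas1b was the exception. Levels came from the transcript count table, in which 35 of the 40 could be recognised by their values (1 to 3 transcripts each). Mx2, Oas1a, Oas2, Zbp1 and Ifi44 could not, so only the authors' deposited values are given for them. The samples were poly(A) RNA libraries from the shoulder of rats whose supraspinatus tendon, a tendon of the rotator cuff, had been cut, with the subacromial bursa over it left in place or taken out. There were 6 libraries each of injured bursa at day 3 and at day 14, of tendon at day 3 with the bursa removed and with it intact, and of tendon at day 14 with the bursa removed and with it intact. Bursa and tendon of rats that had not been operated on, 5 libraries each, were the controls, which makes 46 libraries in 8 groups. The labels give no strain, sex or age and do not tie libraries to single rats. Each library was therefore treated as an independent sample, and the p-values measure only the spread between these samples, which may be technical in part.

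Interferons are secreted proteins that bind receptors on the same or on neighbouring cells. Type I interferons act through a protein complex that holds STAT2 and IRF9 and binds the interferon-stimulated response element (ISRE) in promoters, and interferon gamma acts through the gamma-activated site (GAS). The genes switched on in this way sense or destroy viral RNA, hold back translation or budding, modify proteins with ISG15 or ADP-ribose, draw in T cells and load antigen onto MHC class I, and macrophages and dendritic cells hold many of them at a high level.

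The members were grouped by role before their values are given: transcription factors (Irf1, Irf7, Irf8, Irf9, Stat2), RNA and DNA sensors (Ddx58, Ifih1, Dhx58, Zbp1), the oligoadenylate synthetase (OAS) family (Oas1a, Oas1b, Oas2, Oasl, Oasl2), the IFIT family (Ifit1, Ifit2, Ifit3), GTPases (Mx1, Mx2, Gbp2, Gbp5), other antiviral effectors (Rsad2, Isg20, Bst2, Cmpk2, Rtp4, Xaf1, Ifi27, Ifi44), the ISG15, ubiquitin and ADP-ribose enzymes (Isg15, Usp18, Trim25, Parp9, Parp14, Dtx3l), the chemokines Cxcl9, Cxcl10 and Cxcl11, and antigen processing (Psmb8, Psmb9, Tap1). Those tested, after the filter on low counts, were 33 in the bursa, 34 in the tendon and 34 over both tissues. Levels are in CPM, a library's counts scaled to one common total. Ifit1 was at or near 0 in every library (highest 0.388 CPM) and was not tested, and Cxcl11 was not tested within the bursa.

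Promoters of members are shown because the elements named above mark genes of this response. RefSeq promoters on build GRCr8, from 250 bases before to 50 after each start, were given for 31 members. The ISRE core, searched on both strands as GAAA, any 2 bases and GAAA, was in 19 of them (61.3%), against 3.92% of all 33469 promoters. The GAS letters TTCNNNGAA, which read the same on both strands, were in 10 of the 31 (32.3%), against 8.87% of all promoters. The sequences are the 250 bases before the start of Irf7 (chr1:205800024-205800273, minus strand), Rsad2 (chr6:48788121-48788370, minus strand), Ifit3 (chr1:241527076-241527325, plus strand), Isg20 (chr1:142239809-142240058, plus strand), Irf8 (chr19:65699034-65699283, plus strand) and Mx1 (chr11:50294607-50294856, minus strand), each read 5′ to 3′ towards its gene. Capitals mark the ISRE core in Irf7, Rsad2, Ifit3 and Isg20 and the GAS letters in Irf8.
Irf7: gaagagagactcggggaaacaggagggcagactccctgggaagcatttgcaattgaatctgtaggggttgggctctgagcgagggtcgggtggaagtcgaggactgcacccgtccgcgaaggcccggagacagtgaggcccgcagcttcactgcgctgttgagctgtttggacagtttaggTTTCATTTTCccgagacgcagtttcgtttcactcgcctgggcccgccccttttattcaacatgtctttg
Rsad2: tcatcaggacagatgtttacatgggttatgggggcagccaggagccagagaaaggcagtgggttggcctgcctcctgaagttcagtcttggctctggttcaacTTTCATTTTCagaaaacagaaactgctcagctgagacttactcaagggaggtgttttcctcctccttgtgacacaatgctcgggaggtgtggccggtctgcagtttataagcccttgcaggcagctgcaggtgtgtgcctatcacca
Ifit3: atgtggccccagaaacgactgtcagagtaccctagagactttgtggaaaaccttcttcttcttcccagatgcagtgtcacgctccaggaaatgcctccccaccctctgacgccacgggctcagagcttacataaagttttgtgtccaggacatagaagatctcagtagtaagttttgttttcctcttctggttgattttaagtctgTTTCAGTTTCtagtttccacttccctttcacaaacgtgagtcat
Isg20: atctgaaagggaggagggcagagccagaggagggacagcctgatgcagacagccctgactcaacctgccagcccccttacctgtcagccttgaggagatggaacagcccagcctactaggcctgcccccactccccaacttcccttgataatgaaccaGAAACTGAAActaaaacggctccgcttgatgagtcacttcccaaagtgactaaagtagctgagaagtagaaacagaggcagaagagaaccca
Irf8: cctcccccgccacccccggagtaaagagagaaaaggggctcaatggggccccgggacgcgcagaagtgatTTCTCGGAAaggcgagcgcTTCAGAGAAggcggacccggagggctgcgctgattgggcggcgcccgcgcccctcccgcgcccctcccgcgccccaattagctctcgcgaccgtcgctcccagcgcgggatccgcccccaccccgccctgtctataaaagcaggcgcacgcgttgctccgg
Mx1: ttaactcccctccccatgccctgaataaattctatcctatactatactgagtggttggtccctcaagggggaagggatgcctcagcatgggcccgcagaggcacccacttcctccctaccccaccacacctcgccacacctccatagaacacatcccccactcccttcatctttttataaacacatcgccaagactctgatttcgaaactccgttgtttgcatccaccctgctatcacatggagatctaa
The first base of the ISRE core lay 69 bases before the start in Irf7, 147 in Rsad2, 44 in Ifit3 and 92 in Isg20. Irf8 held the GAS letters at 180 and 161 bases before its start, and the marked runs do not overlap. These letters were not in this window of Mx1. A match is a run of letters, not a measured binding site.

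Libraries held 12425823 to 22615613 estimated counts, except replicate 6 of the day 14 bursa, which held 69947597. Fat, tendon and muscle markers checked the tissue labels: control bursa had 14950 to 36900 CPM summed over 9 adipocyte genes, against 800.0 to 1411 CPM in control tendon, and 247.4 to 7776 CPM over 11 tendon cell genes, against 7615 to 21540 CPM in control tendon. Control tendon also held 38310 to 61100 CPM of 8 skeletal muscle genes, while operated tendons held 2142 to 24660 CPM. In bulk tissue, fewer cells of a type and less RNA per cell cannot be told apart.

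The mean log2 level of the 34 tested members (log2 of CPM + 0.1) gives their course over the groups. It was 4.30 ± 0.28 in bursa at day 3, 4.86 ± 1.40 at day 14 (SD, n = 6 each) and 3.92 ± 0.37 in control bursa (n = 5), and it was 4.30 ± 0.30 at day 14 without replicate 6 (n = 5). In tendon it was 3.60 ± 0.23 at day 3 with the bursa removed, 3.44 ± 0.26 at day 3 with it intact, 2.79 ± 0.31 at day 14 with it removed, 2.83 ± 0.42 at day 14 with it intact and 2.97 ± 0.14 in control tendon. Tendon thus stood highest at day 3 and was at about its control level at day 14, and every bursa group stood above every tendon group in its mean.

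**Figure D1:**
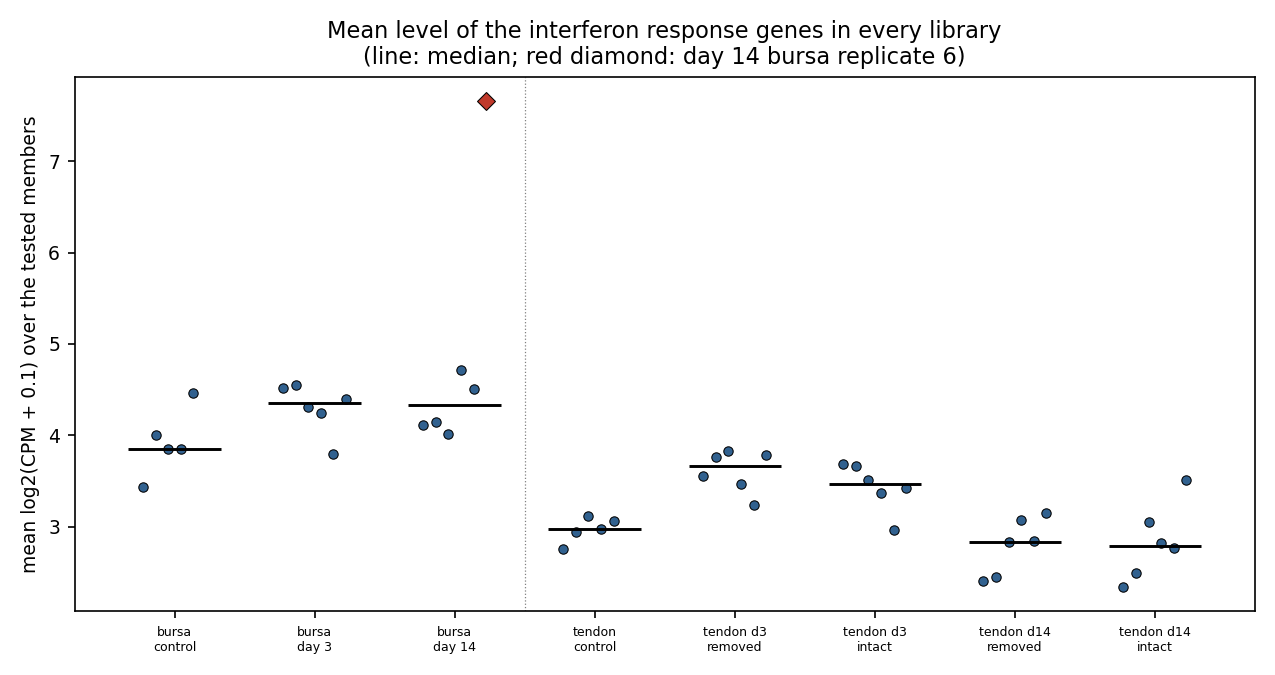
The y axis gives the mean log2(CPM + 0.1) over the 34 tested members and the x axis the 8 groups, with 1 point per library and a line at the group median. Replicate 6 of the day 14 bursa (red diamond) is at 7.66, and the other 45 libraries lie between 2.34 and 4.72.

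Replicate 6 of the day 14 bursa stood apart from every other library in these genes. Mx1, a GTPase that traps viral ribonucleoproteins, was at 1456 CPM in replicate 6, against 9.36 to 46.8 CPM (median 18.0) in the other 5 day 14 bursae. Irf7, a transcription factor that drives interferon genes, was at 1142 CPM in replicate 6 and at 36.3 to 91.3 CPM in the other 5. Cxcl10, a chemokine for T cells, was at 241.0 CPM in replicate 6 and at 1.98 to 5.41 CPM in the other 5. These are folds of 80.8, 30.4 and 88.0 over the median of the other 5. Isg15, the ubiquitin-like modifier, was at 350.5 CPM in replicate 6 (34.8-fold), and Ifit3, of the IFIT family, at 407.8 CPM (42.2-fold). Rsad2, which makes a chain-ending nucleotide, was at 325.1 CPM (30.8-fold). The immunoproteasome subunit Psmb8 was at 163.8 CPM in replicate 6, against 39.9 to 44.8 CPM in the other 5. The smallest fold among tested members was that of Irf8, a factor of the macrophage and dendritic lineages, at 92.7 CPM in replicate 6 and 39.1 to 66.7 CPM in the other 5 (1.60-fold).

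All 34 tested members had their highest value of the 46 libraries in replicate 6, where 3.09% of all features did. In 21 of the 34 the value was over 4 times the highest of the other 5 day 14 bursae, against 0.692% of all features. The median log2 difference of replicate 6 from the median of the other 5 was 3.41 over the members and 0.00 over all features. Ranked by their excess over the highest of the other 5, 21 members were among the first 100 of 17041 features. This is a description, since the library was named for its own Mx1 level.

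**Figure D2:**
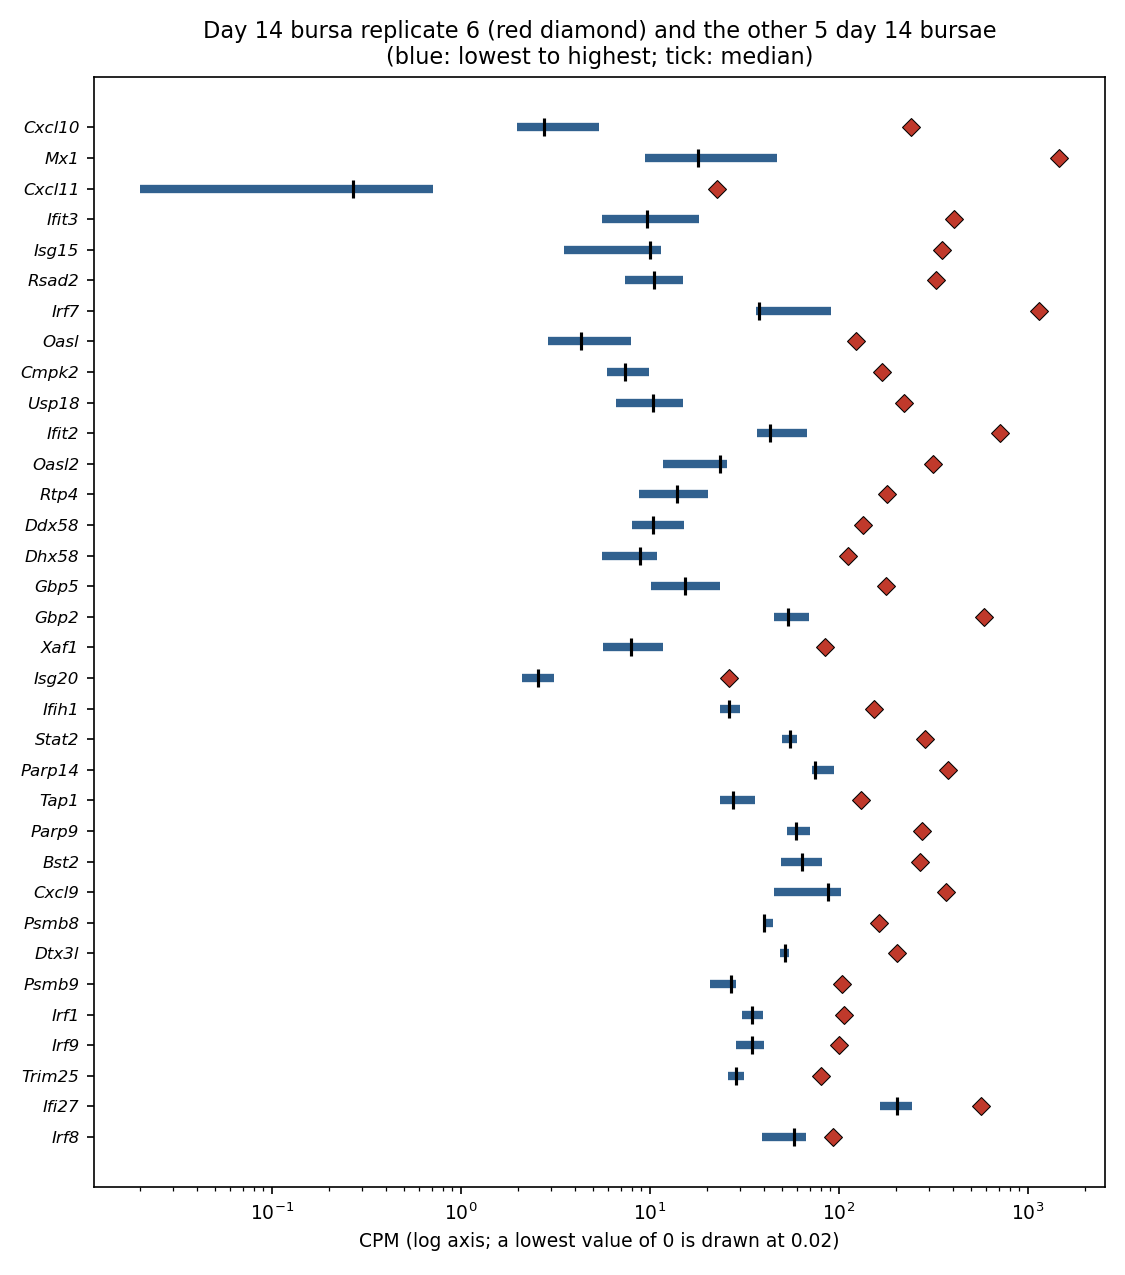
Each line is 1 tested member, ordered by its log2 difference, with CPM on a log x axis. The red diamond is replicate 6 of the day 14 bursa, the blue bar runs from the lowest to the highest of the other 5 day 14 bursae, and the black tick is their median. Each diamond lies to the right of its bar, from Cxcl10 (241.0 CPM) to Irf8 (92.7 CPM).

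Genes around the members differed in that library too. Of 44 other interferon-stimulated genes with counts, 42 were above the range of the other 5 and 40 were the highest of 46, such as B2m, the light chain of MHC class I, at 3320 CPM against 1284 to 1930 CPM. The RNA sensor Tlr7 was at 86.5 CPM against 34.0 to 38.2 CPM, and the macrophage lectin Siglec1, which interferon also raises, was at 258.8 CPM against 39.1 to 58.1 CPM. Receptor Ifnar1, kinase Tyk2 and factor Irf3 were below the other 5, with Ifnar1 at 90.7 CPM against 97.7 to 120.1 CPM. Of the cell markers, 7 of 13 macrophage, 7 of 11 T and NK cell, 5 of 9 dendritic cell, 5 of 7 neutrophil, 8 of 9 adipocyte and 7 of 8 muscle genes were above the other 5, 10 of 11 tendon cell genes were below, and all 8 cell division genes were within. Over all features, 20.6% were above the other 5 and 22.1% below. Summed macrophage markers were 3497 CPM in replicate 6 and 1950 to 3437 CPM in the other 5, and summed T and NK cell markers 169.4 CPM against 161.6 to 200.7 CPM. The part of cell makeup, depth or handling in this library's levels was not tested.

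**Figure D3:**
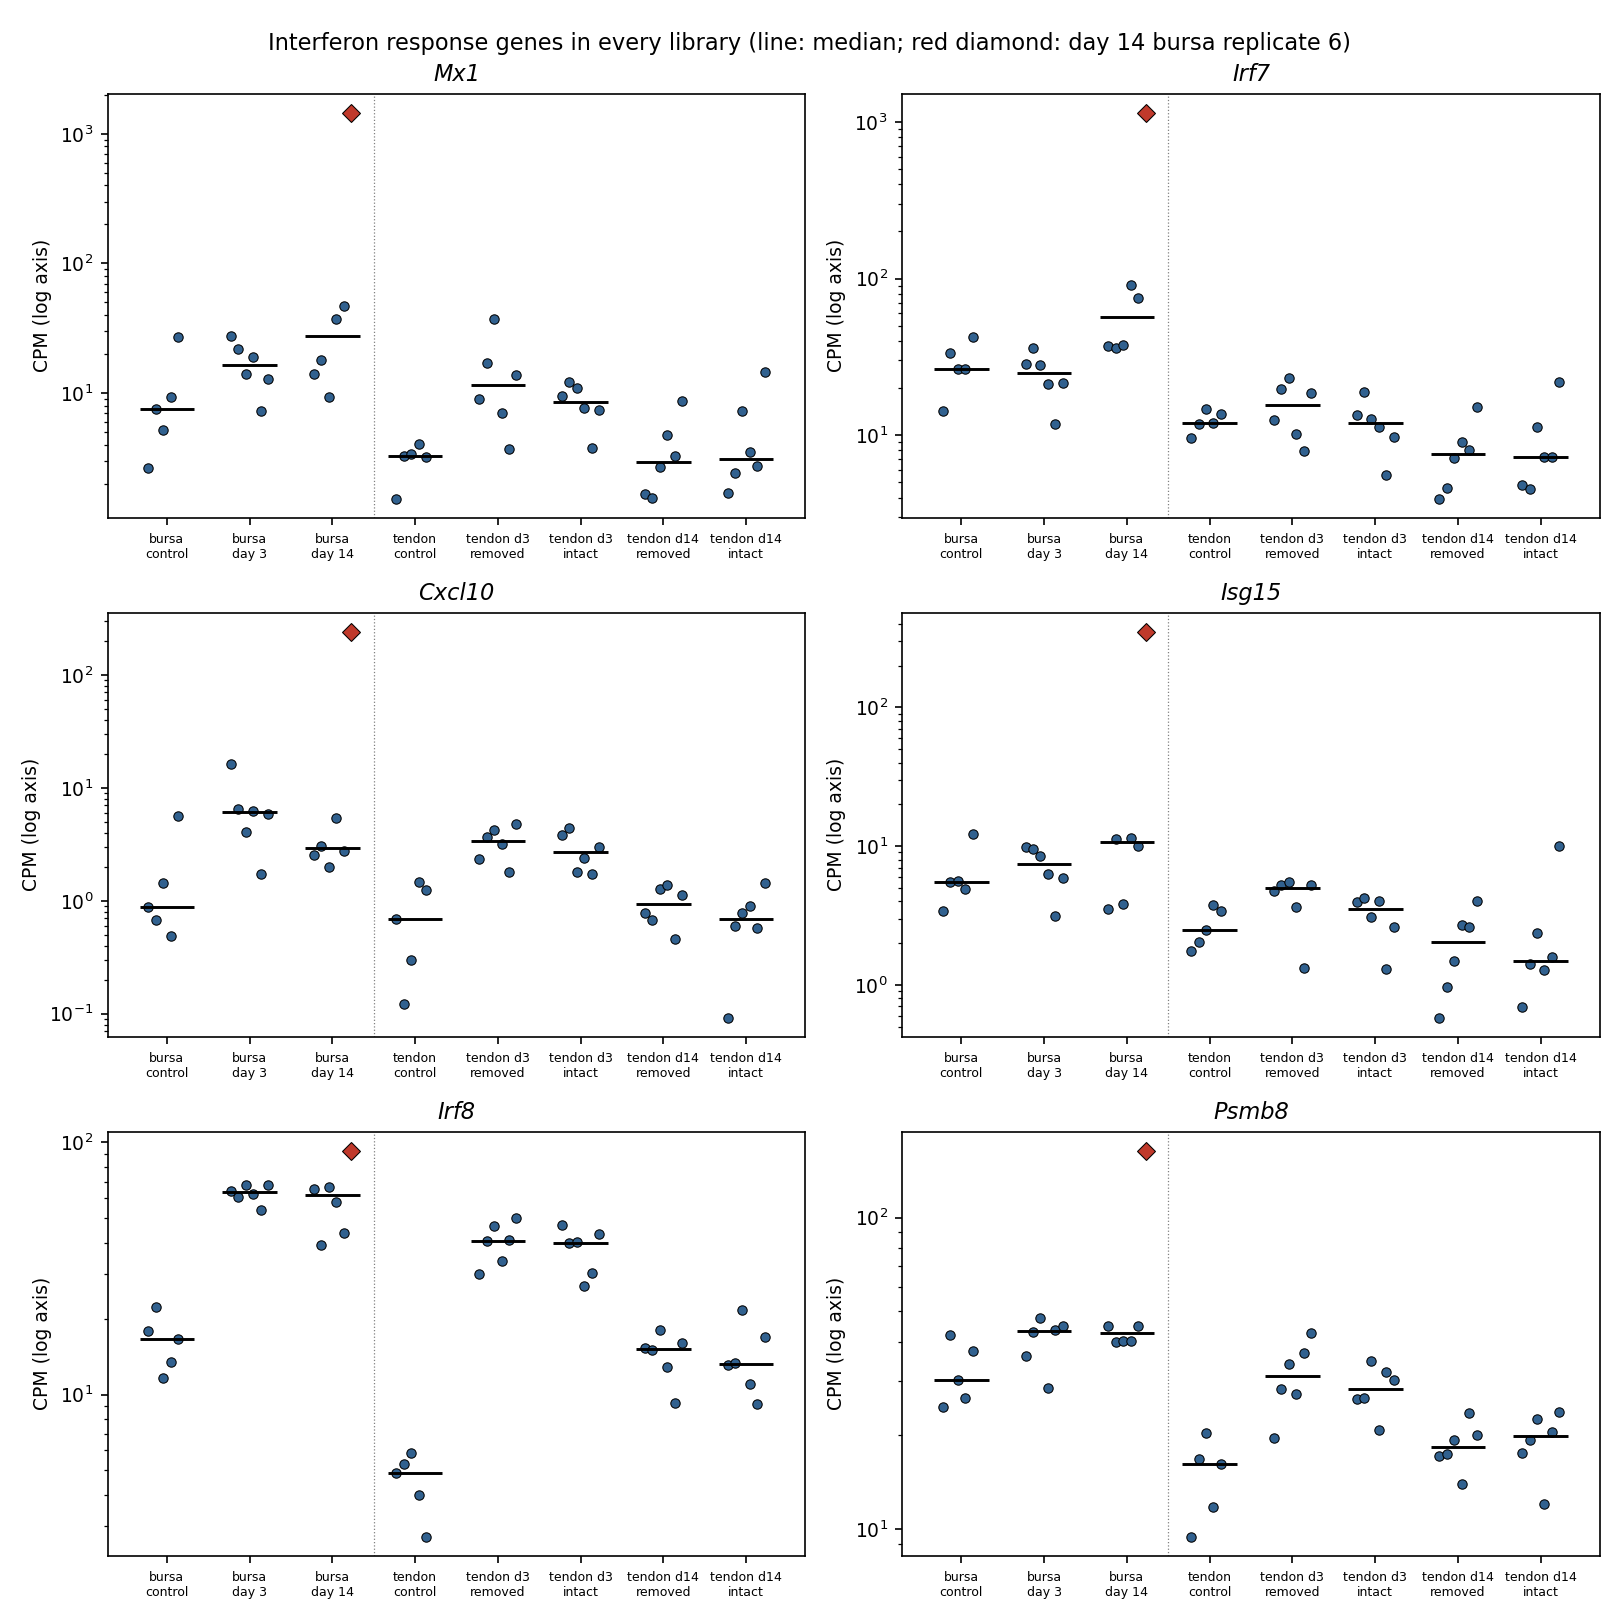
The y axes give CPM (log axis) of Mx1, Irf7, Cxcl10, Isg15, Irf8 and Psmb8, and the x axes the 8 groups, with 1 point per library and a line at the group median. Replicate 6 of the day 14 bursa (red diamond) tops each panel, Irf8 stands higher in every injured bursa than in every control bursa, and the tendon values of Mx1 and Cxcl10 are highest at day 3.

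Injured bursa at day 3 was compared with control bursa to ask how the tissue responded early. Among 33 tested members 2 rose and none fell, while 46.4% of all 16111 features were called and 22.3% of all features were higher. Irf8 was at 53.9, 63.5 and 67.8 CPM at day 3 (lowest, median and highest of 6) and at 17.9, 22.3, 11.6, 13.5 and 16.7 CPM in control bursa. Cxcl9, a chemokine induced chiefly by interferon gamma, was at 50.3, 62.6 and 93.2 CPM at day 3 and at 10.6, 23.3, 26.6, 18.7 and 35.5 CPM in control bursa. The day 3 and control values of these 2 genes did not overlap, with log2 fold changes of 1.98 ± 0.21 for Irf8 (edgeR adjusted p = 2.38e-06) and 1.58 ± 0.45 for Cxcl9 (adjusted p = 0.00982; ± is the standard error for every fold change). Stat2 was also higher without overlap, as described next, and Isg20 lower, where 13.7% and 11.6% of features were.

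Mx1 was at 7.23, 16.4 and 27.6 CPM at day 3 and at 2.63, 7.48, 5.15, 9.25 and 27.3 CPM in control bursa (log2 0.74 ± 1.14, adjusted p = 0.624), where control replicate 5 lay near the highest day 3 value. Cxcl10 was at 1.73, 6.07 and 16.2 CPM at day 3 and at 0.878, 0.680, 1.45, 0.484 and 5.62 CPM in control bursa (1.85 ± 1.30, adjusted p = 0.259). Irf7 was at 11.8, 24.8 and 36.0 CPM at day 3 and at 14.2, 33.6, 26.6, 26.3 and 42.1 CPM in control bursa (-0.18 ± 0.81, adjusted p = 0.876). Groups overlapped in all 3 of these. Isg15 had 3.13, 7.39 and 9.82 CPM at day 3 and 3.42, 5.54, 5.60, 4.95 and 12.3 CPM in control bursa, and Psmb8 had 28.5, 43.1 and 47.7 CPM at day 3 and 24.8, 41.9, 30.2, 26.4 and 37.4 CPM in control bursa (0.38 ± 0.35, adjusted p = 0.39).

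The spread of replicate 6 of the day 14 bursa enters this comparison, because all bursa libraries share 1 estimate of the spread. Without it, 10 of 33 members rose at day 3 (Irf8, Stat2, Oasl2, Cxcl9, Cxcl10, Parp9, Parp14, Dtx3l, Psmb8 and Tap1) and Isg20, an RNA exonuclease, fell, while 46.5% of features were called. The fold changes stayed close: Stat2, a subunit of the type I interferon complex, had 0.88 ± 0.41 with the library and 0.88 ± 0.12 without it. Stat2 was at 58.3, 67.9 and 74.8 CPM at day 3 and at 28.9, 32.0, 45.7, 37.2 and 46.2 CPM in control bursa, with no overlap. In the authors' deposited table for these groups, which was made from them alone, 10 of 40 members were higher at day 3 and 1 lower at an adjusted p under 0.05, where 18.3% of its genes were higher and 20.2% lower. Summed macrophage markers were 3251 to 4492 CPM at day 3 and 462.2 to 1867 CPM in control bursa, and their part in these results was not tested.

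At day 14, 7 of 33 members were called as higher than in control bursa and none as lower, where 16.4% of all features were called and 9.41% were higher. The 7 were Mx1, Cxcl10, Irf7, Cxcl9, Irf8, Stat2 and Oasl2, and all 33 fold changes were above 0, with a median of 1.65 against -0.05 over all features. Without replicate 6 the called members were 3 higher (Cxcl9, Irf8, Stat2) and 1 lower (Isg20) with 14.6% of features called, and the median was 0.22. Leaving out control replicate 1, 2 or 3 gave 2, 3 and 3 called members. Of cell markers, 9 of 13 macrophage and 8 of 9 T and NK cell genes rose at day 14, and summed macrophage markers were 1950 to 3497 CPM at day 14 and 462.2 to 1867 CPM in control bursa, and their part in these results was not tested.

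Day 14 and control values did not overlap for 3 members, Irf8, Cxcl9 and Stat2, and for 6.64% of features. Irf8 was at 39.1, 61.7 and 92.7 CPM at day 14, above every control bursa (11.6 to 22.3 CPM), with a log2 fold change of 1.90 ± 0.21 (adjusted p = 6.91e-05) and of 1.74 ± 0.18 without replicate 6. Cxcl9 was at 45.2, 91.7 and 366.3 CPM at day 14, again above every control bursa (10.6 to 35.5 CPM), with 2.50 ± 0.47 (adjusted p = 0.00273) and 1.82 ± 0.28 without replicate 6. Stat2 was at 49.7, 56.1 and 285.4 CPM at day 14 and at 28.9 to 46.2 CPM in control bursa, with 1.30 ± 0.42 (adjusted p = 0.0446) and 0.51 ± 0.12 without replicate 6. Irf8 and Cxcl9 kept their calls in every alternative tried, whereas Stat2 lost its call when any control bursa was left out, with no filter on low counts, with a replicate block and when the 2 groups were fitted alone.

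The remaining 4 calls were lost without replicate 6. Mx1 was at 9.36, 27.7 and 1456 CPM at day 14 and at 2.63 to 27.3 CPM in control bursa, with a log2 fold change of 4.67 ± 1.34 (adjusted p = 0.0267) and of 1.26 ± 0.57, not called, without replicate 6. Irf7 was at 36.3, 56.5 and 1142 CPM at day 14 and at 14.2 to 42.1 CPM in control bursa, with 3.07 ± 0.89 (adjusted p = 0.0286) and 0.96 ± 0.34, not called, without it. Cxcl10 was at 1.98, 2.91 and 241.0 CPM at day 14 and at 0.484 to 5.62 CPM in control bursa, with 4.50 ± 1.42 (adjusted p = 0.0407) and 0.74 ± 0.64, not called, without it. Oasl2, an OAS-like protein, was at 11.8, 24.5 and 315.7 CPM at day 14 and at 6.76, 13.7, 12.9, 11.9 and 23.2 CPM in control bursa, with 2.36 ± 0.78 (adjusted p = 0.048) and 0.57 ± 0.29, not called, without it. These calls were also lost with a replicate block, in a fit of the 2 groups alone and without control replicate 1, 2 or 3, and those of Cxcl10 and Oasl2 without control replicate 4.

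Other members with a value in every library behaved alike at day 14. Isg15 was at 3.50, 10.7 and 350.5 CPM, Psmb8 at 39.9, 42.5 and 163.8 CPM (0.97 ± 0.35, adjusted p = 0.0701), and Ifih1, an RNA sensor also called MDA5, at 23.4, 26.8 and 152.9 CPM, against 20.3, 22.3, 23.1, 21.1 and 27.2 CPM of Ifih1 in control bursa. Ifit2 was at 36.8, 50.7 and 710.0 CPM at day 14 and at 30.3, 52.1, 55.2, 50.1 and 70.6 CPM in control bursa. Gbp2, a guanylate-binding protein that attacks pathogen vacuoles, was at 45.4, 59.8 and 583.6 CPM at day 14 and at 20.2, 37.5, 44.8, 46.5 and 63.8 CPM in control bursa. In each the highest day 14 value was replicate 6 and the median lay within or near the control values. Ifi27 and Parp14 did the same, with medians of 215.6 and 78.6 CPM at day 14 and 201.5 and 62.7 CPM in control bursa. In the authors' deposited table for these groups the p-value was left blank for 32 of 40 members, against 1.49% of its genes, and 2 members were higher at day 14 at an adjusted p under 0.05, where 8.44% of its genes were. The adjusted p in that table was blank for 33 of the 40 members and 16.8% of genes. Blanks count as not passing in both, so the 2 members and the 8.44% cannot be compared directly.

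Between days, 5 of 33 members were called as higher in bursa at day 14 than at day 3 (Mx1, Irf7, Isg15, Usp18 and Cmpk2), with 21.8% of features called and 9.53% higher. Irf7 had a log2 fold change of 3.25 ± 0.84 (adjusted p = 0.0108), and its day 14 libraries, at 36.3 CPM or more, were all above its day 3 libraries, at 36.0 CPM or less, as for 7.08% of features. Over the alternatives, adjusted p for Irf7 was 0.00764 to 0.113, and its call was lost with a replicate block. Without replicate 6, only Irf7 was higher (1.14 ± 0.32, adjusted p = 0.0222) and Stat2 was lower (-0.37 ± 0.12), where 20.0% of features were called. Mx1 then had 0.51 ± 0.54 in place of 3.93 ± 1.19, Isg15 0.12 ± 0.39 in place of 3.16 ± 1.03, Usp18, which removes ISG15 and damps the receptor, 0.37 ± 0.29 in place of 2.57 ± 0.82, and Cmpk2, a mitochondrial nucleotide kinase, 0.20 ± 0.20 in place of 2.37 ± 0.78. Cxcl10 had -1.15 ± 0.61 in place of 2.65 ± 1.18, neither of them called (adjusted p = 0.125 with the library). Irf8 (-0.08 ± 0.19, adjusted p = 0.804) and Psmb8 (0.59 ± 0.33, adjusted p = 0.223) were not called. The count was also 11, 10 and 10 without day 14 replicate 1, 2 or 3, and 1 or 2 when any 1 of the 6 day 3 libraries was left out. Of cell markers, 7 of 9 adipocyte genes were higher at day 14 than at day 3, while 8 of 8 cell division and 4 of 5 neutrophil genes were lower. T and NK cell genes went both ways, with 6 of 9 higher and 2 lower, or 4 higher and 2 lower without replicate 6. Their summed level had a median of 190.5 CPM at day 3 and 183.3 CPM at day 14. The part of these cell types in these results was not tested.

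In tendon, the day 3 comparisons with control ask how the cut tendon responded with the bursa removed or intact. With the bursa removed 18 of 34 members rose and 3 fell, with 63.2% of 16183 features called, and with it intact 18 rose and 4 fell, with 65.8% called. Of features, 29.8% were higher and 33.4% lower with the bursa removed, and 31.0% higher and 34.7% lower with it intact. Over both directions together the members were called about as often as features in general. By direction, they were called more often as higher and less often as lower. These 2 comparisons share the 5 control tendons, so their similarity is no separate result. The median log2 fold change of members was 0.56 with the bursa removed and 0.42 with it intact, against -0.05 over all features in both. Day 3 and control values did not overlap for 13 members as higher and 3 as lower with the bursa removed (18.7% and 17.5% of features) and for 11 and 2 with it intact (23.3% and 22.6%).

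Chemokines, antigen processing and OAS genes were called throughout. All 3 chemokines, all 3 antigen processing genes and both OAS genes rose in either day 3 group. Cxcl10 was at 1.79, 3.41 and 4.76 CPM with the bursa removed, at 1.73, 2.70 and 4.43 CPM with it intact and at 0.687, 0.123, 0.301, 1.48 and 1.25 CPM in control tendon. Cxcl9 was at 9.47, 12.5 and 16.4 CPM with the bursa removed, at 6.97, 9.83 and 12.3 CPM with it intact and at 5.95, 3.07, 3.24, 3.40 and 3.75 CPM in control tendon. No day 3 value of either chemokine overlapped the controls, and the log2 fold changes were 2.11 ± 0.50 and 1.89 ± 0.50 for Cxcl10 (adjusted p = 0.000613 with the bursa removed and 0.00154 with it intact) and 1.68 ± 0.28 and 1.27 ± 0.27 for Cxcl9. Cxcl11 rose as well but stayed under 1 CPM in every tendon (0.601 ± 0.314 CPM removed, 0.296 ± 0.146 CPM intact, 0.0679 ± 0.101 CPM control); its call with the bursa intact was lost without control replicate 1 or 2.

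Psmb8 was at 19.6, 31.1 and 42.5 CPM with the bursa removed, at 20.9, 28.3 and 34.6 CPM with it intact and at 9.46, 16.8, 20.3, 11.8 and 16.3 CPM in control tendon. Its log2 fold changes were 1.03 ± 0.20 (adjusted p = 6.14e-05) with the bursa removed and 0.87 ± 0.20 (adjusted p = 0.000357) with it intact, and only the lowest value with the bursa removed lay within the controls. Oasl2 was at 11.2, 18.8 and 23.0 CPM with the bursa removed, at 12.5, 18.4 and 23.0 CPM with it intact and at 5.65, 7.62, 8.14, 6.10 and 5.23 CPM in control tendon, with no overlap and log2 fold changes of 1.44 ± 0.21 and 1.43 ± 0.21. Tap1, which carries peptides to MHC class I, rose by 0.76 ± 0.10 with the bursa removed and 0.67 ± 0.10 with it intact, and Psmb9, another immunoproteasome subunit, by 0.84 ± 0.13 and 0.60 ± 0.13.

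Of 5 transcription factors, 4 rose with the bursa removed and 3 with it intact. Irf8 was at 30.1, 40.8 and 50.1 CPM with the bursa removed, at 26.9, 40.1 and 47.1 CPM with it intact and at 4.88, 5.28, 5.88, 4.01 and 2.73 CPM in control tendon. Its log2 fold changes, 3.08 ± 0.23 (adjusted p = 7.21e-12) removed and 2.98 ± 0.23 (adjusted p = 1.08e-11) intact, were the largest of the tested members in both comparisons. Stat2 was at 43.3, 53.5 and 57.9 CPM with the bursa removed, at 45.0, 51.4 and 55.7 CPM with it intact and at 23.9, 24.0, 31.8, 22.4 and 24.7 CPM in control tendon, again with no overlap (0.97 ± 0.10 and 0.96 ± 0.10). Irf7, in contrast, was at 7.93, 15.5 and 23.2 CPM with the bursa removed, at 5.60, 11.99 and 18.9 CPM with it intact and at 9.54, 11.7, 14.7, 12.02 and 13.8 CPM in control tendon, and was not called (0.27 ± 0.37, adjusted p = 0.55, and -0.10 ± 0.37, adjusted p = 0.834).

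Mx1 was at 3.73, 11.5 and 37.3 CPM with the bursa removed, at 3.77, 8.54 and 12.2 CPM with it intact and at 1.53, 3.26, 3.39, 4.01 and 3.18 CPM in control tendon. It rose by 2.21 ± 0.58 (adjusted p = 0.00175) with the bursa removed and by 1.43 ± 0.57 (adjusted p = 0.031) with it intact. The call with the bursa intact was lost without control replicate 1 or 2 or without intact replicate 2. The RNA sensors Dhx58 (1.19 ± 0.25 removed, 1.07 ± 0.25 intact) and Ddx58, also called RIG-I (0.63 ± 0.21 removed, 0.65 ± 0.20 intact), rose, and Ifih1 was not called, at 13.9, 17.5 and 19.1 CPM with the bursa removed, at 15.0, 17.8 and 22.4 CPM with it intact and at 14.0, 15.8, 15.7, 11.5 and 17.6 CPM in control tendon. Oasl rose by 1.45 ± 0.39 with the bursa removed and by 1.00 ± 0.39 with it intact, where the call was lost without control replicate 2 or 4 or intact replicate 2. Parp14, an ADP-ribose transferase, was at 52.2, 62.5 and 68.6 CPM with the bursa removed, at 49.1, 64.7 and 69.6 CPM with it intact and at 28.3, 36.3, 42.5, 32.7 and 34.2 CPM in control tendon, with no overlap. Isg15 was at 1.31, 5.00 and 5.54 CPM with the bursa removed, at 1.31, 3.53 and 4.25 CPM with it intact and at 1.76, 2.03, 2.49, 3.75 and 3.41 CPM in control tendon, and was not called.

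None of 7 other antiviral effectors rose at day 3. Isg20 was at 1.32 ± 0.26 CPM with the bursa removed, 1.81 ± 0.67 CPM with it intact and 2.96 ± 1.17 CPM in control tendon, with log2 fold changes of -1.19 ± 0.27 and -0.76 ± 0.27. Cmpk2 fell to 2.64 ± 0.61 CPM with the bursa removed and 2.04 ± 0.76 CPM with it intact, against 5.50 ± 0.83 CPM in control tendon (-1.10 ± 0.32 and -1.48 ± 0.32). Gbp5, a guanylate-binding protein of the inflammasome, fell to 7.83 ± 1.06 CPM and 6.91 ± 0.70 CPM, against 13.7 ± 1.63 CPM in control tendon (-0.85 ± 0.16 and -1.04 ± 0.16). Ifi27, a mitochondrial protein, was at 119.2, 147.2 and 174.4 CPM with the bursa removed, at 95.6, 138.8 and 153.7 CPM with it intact, where it fell (-0.41 ± 0.14), and at 142.7, 159.9, 175.2, 179.0 and 166.3 CPM in control tendon. Ifit2 (26.7, 32.0 and 35.3 CPM removed, 19.9, 30.5 and 35.0 CPM intact, and 27.1, 31.2, 42.6, 37.0 and 40.8 CPM in control tendon) and Gbp2 (medians of 37.8, 37.6 and 35.2 CPM in the same order) were not called.

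Markers of cell types moved with these groups. All 13 macrophage markers rose with the bursa intact and 11 of 13 with it removed, and their sum was 2771 to 6643 CPM with the bursa removed, 4346 to 7188 CPM with it intact and 802.8 to 2251 CPM in control tendon. All 8 skeletal muscle genes fell in either day 3 group. The part of macrophage and muscle RNA in the members' changes was not tested.

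**Figure D4:**
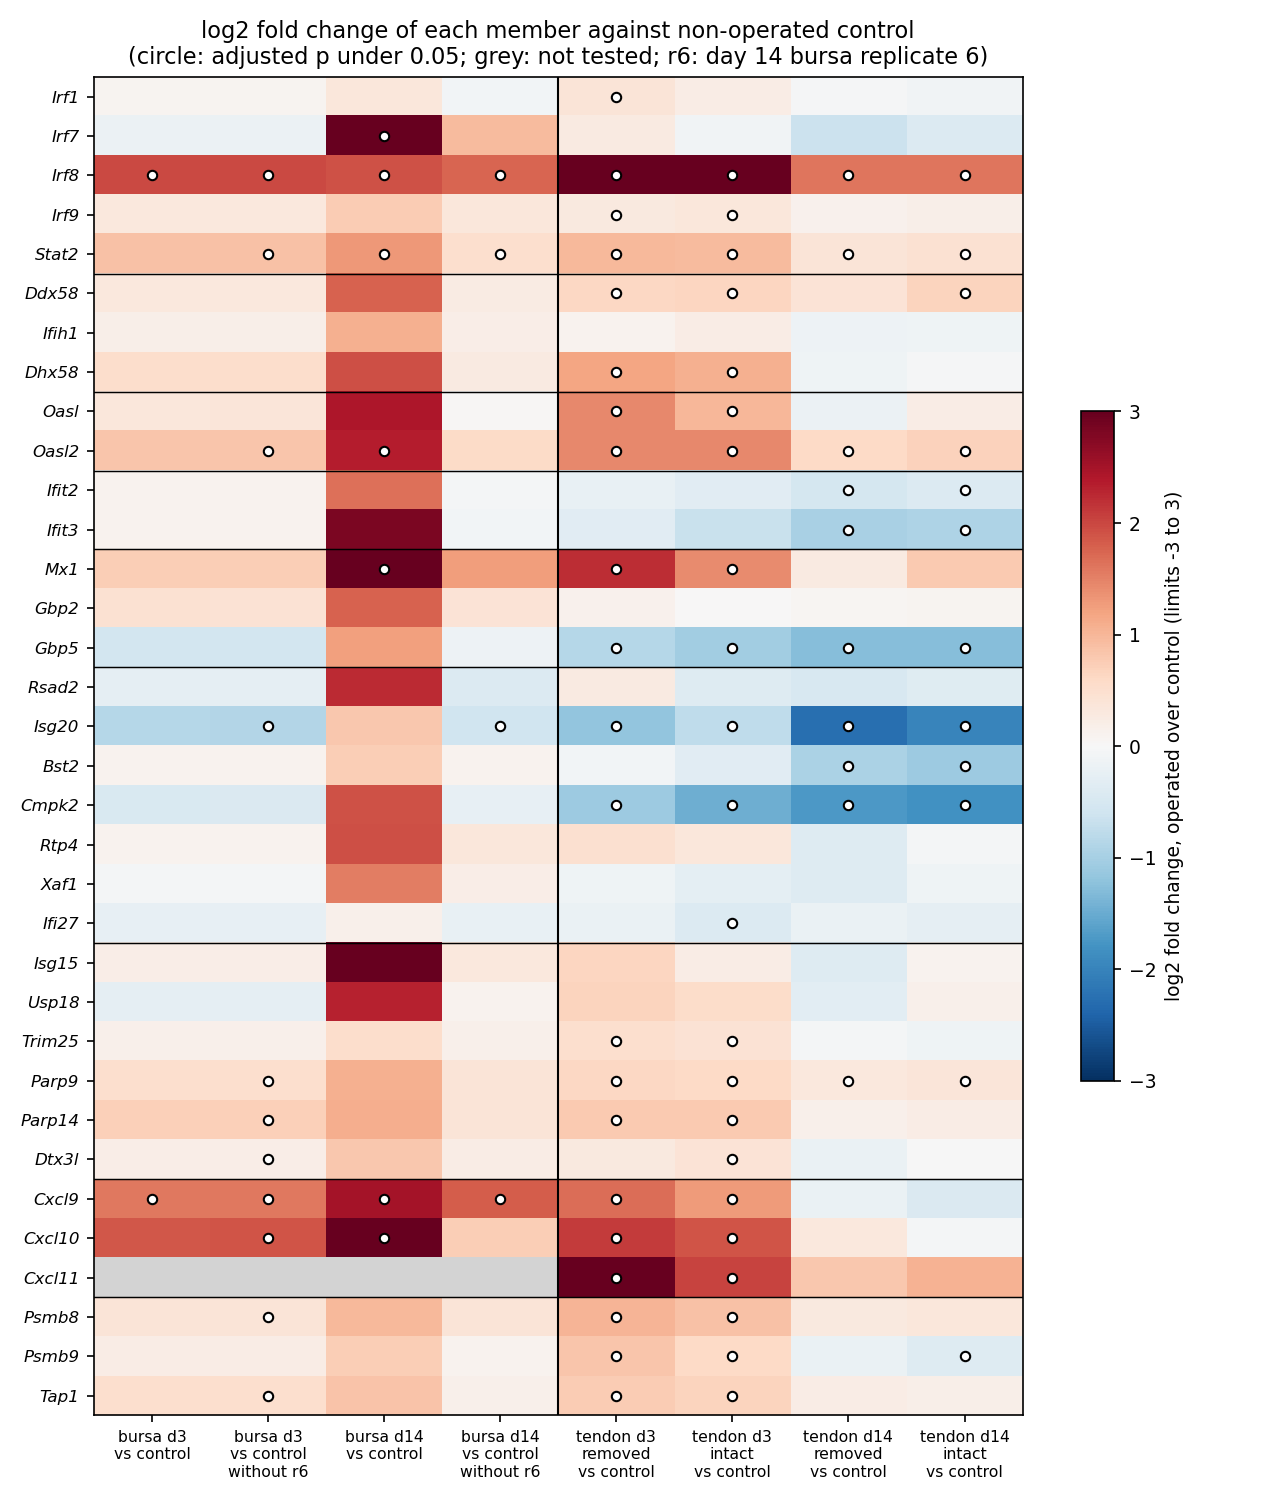
Colour gives the log2 fold change of each tested member (down the page, ordered by role) in operated over control tissue (columns), limited to -3 and 3, and a circle marks an edgeR adjusted p under 0.05. The bursa columns at day 14 pale without replicate 6 (r6), the day 3 tendon columns hold 18 called rises each, and Isg20, Cmpk2 and Gbp5 are blue in all 4 tendon columns.

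By day 14 the called members of tendon split in direction. With the bursa removed 4 of 34 were higher than in control and 6 lower, with 65.3% of features called (32.6% in each direction), and with it intact 5 were higher and 7 lower, with 66.3% called (33.2% higher and 33.1% lower). Irf8 was at 9.29, 15.2 and 18.0 CPM with the bursa removed and at 9.18, 13.2 and 21.7 CPM with it intact, all above the control tendons (2.73 to 5.88 CPM), with log2 fold changes of 1.61 ± 0.22 (adjusted p = 4.95e-07) and 1.60 ± 0.22 (adjusted p = 4.92e-07). Stat2 (0.38 ± 0.10 and 0.45 ± 0.10), Oasl2 (0.59 ± 0.21 and 0.69 ± 0.21) and Parp9, a partner of the ubiquitin ligase Dtx3l (0.31 ± 0.12 and 0.36 ± 0.12), rose in both, and Ddx58 rose with the bursa intact (0.68 ± 0.21). Parp9 lost its call with the bursa removed when control replicate 1 or 4 or removed replicate 4, 5 or 6 was left out.

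Isg20 fell most at day 14, to 0.617 ± 0.134 CPM with the bursa removed and 0.757 ± 0.244 CPM with it intact, against 2.96 ± 1.17 CPM in control tendon, with log2 fold changes of -2.27 ± 0.28 (adjusted p = 8.45e-08) and -1.97 ± 0.28 (adjusted p = 6.05e-07). Cmpk2 fell by 1.72 ± 0.33 with the bursa removed and 1.81 ± 0.33 with it intact, Gbp5 by 1.27 ± 0.16 in both, and Bst2, which tethers budding virus to the cell, by 0.94 ± 0.17 and 1.09 ± 0.17. In these 4 genes no day 14 value overlapped the controls, which held for 21.9% of features with the bursa removed and 23.1% with it intact. Above the controls without overlap stood Irf8 and, with the bursa removed, Oasl2, where 23.2% and 23.9% of features did. Ifit3 (-0.98 ± 0.35 and -0.92 ± 0.35) and Ifit2 (-0.52 ± 0.17 and -0.41 ± 0.17) fell in both, though with the bursa intact both calls were lost when single libraries were left out, control replicate 3 or intact replicate 1 or 2 among them. Ifit2 was at 19.3, 26.1 and 31.6 CPM with the bursa removed and at 18.5, 26.6 and 39.2 CPM with it intact.

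Mx1, Irf7, Cxcl10 and Psmb8 were not called against control at day 14. Mx1 was at 1.54, 2.96 and 8.68 CPM with the bursa removed (0.27 ± 0.58, adjusted p = 0.705) and at 1.70, 3.12 and 14.5 CPM with it intact (0.79 ± 0.57, adjusted p = 0.232). Irf7 was at 3.93, 7.62 and 15.2 CPM removed (-0.65 ± 0.38, adjusted p = 0.132) and at 4.56, 7.23 and 21.7 CPM intact (-0.40 ± 0.38, adjusted p = 0.354). It would be called lower without replicate 6 of either group and, with the bursa removed, with a replicate block. Cxcl10 was at 0.458, 0.944 and 1.38 CPM removed (0.32 ± 0.50, adjusted p = 0.589) and at 0.0920, 0.691 and 1.43 CPM intact (-0.05 ± 0.51, adjusted p = 0.936), within or near the controls. Psmb8 was at 14.0, 18.4 and 23.7 CPM removed (0.29 ± 0.20, adjusted p = 0.2) and at 12.1, 20.0 and 23.8 CPM intact (0.35 ± 0.20, adjusted p = 0.125, and 0.0308 to 0.341 over its alternatives). Psmb8 with the bursa intact would be called higher with a replicate block and without control replicate 3 or intact replicate 4. Isg15 was at 0.580, 2.05 and 4.05 CPM removed and 0.690, 1.49 and 10.04 CPM intact. Replicate 6 held the highest value of its group for 22 of 34 members with the bursa intact, against 15.0% of features, and for 14 of 34 with it removed, against 13.2%. In both day 14 groups all 8 muscle genes again stood below control tendon, while 9 of 13 macrophage and 5 of 7 T and NK cell genes stood above. Of 9 dendritic cell genes, 7 were higher with the bursa removed and 8 with it intact, with 1 lower in each. The part of these cell types in the members' levels was not tested.

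From day 3 to day 14 the called members all fell. With the bursa removed 21 of 34 were lower at day 14 than at day 3 and none higher, with 45.3% of features called and 21.8% lower. With it intact 15 of 34 were lower and none higher, with 43.1% called and 20.5% lower. The median log2 fold change was -0.69 with the bursa removed and -0.41 with it intact, against -0.01 and 0.01 over all features. All 3 chemokines fell with the bursa removed, Cxcl11 by 2.22 ± 0.58, and Cxcl9 and Cxcl10 also with it intact. The fall was, for Cxcl10, 1.78 ± 0.44 (adjusted p = 0.0017) with the bursa removed and 1.94 ± 0.45 (adjusted p = 0.000972) with it intact, and, for Cxcl9, 1.88 ± 0.26 and 1.70 ± 0.26. Cxcl9 was at 1.97, 2.85 and 6.74 CPM at day 14 with the bursa removed and at 1.95, 2.66 and 4.59 CPM with it intact, below every day 3 tendon of its own arm. Such a fall without overlap was seen in 14 members with the bursa removed, against 11.0% of features, and in 8 with it intact, against 14.1%.

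Irf8 fell by 1.47 ± 0.19 (adjusted p = 4.39e-07) with the bursa removed and 1.38 ± 0.19 (adjusted p = 1.22e-06) with it intact, and Psmb8 by 0.74 ± 0.18 (adjusted p = 0.00169) and 0.52 ± 0.18 (adjusted p = 0.0215). Psmb8 lost the second of these calls without intact day 14 replicate 4. Mx1 fell by 1.94 ± 0.52 (adjusted p = 0.00351) with the bursa removed, and with it intact it was at -0.64 ± 0.51 (adjusted p = 0.334), or -1.27, and called, without day 14 replicate 6. Irf7 fell by 0.92 ± 0.36 (adjusted p = 0.037) with the bursa removed, a call lost without day 14 replicate 1, 2, 3 or 5 or day 3 replicate 2, 3 or 6, and had -0.31 ± 0.35 (adjusted p = 0.522) with it intact. Isg20, Dhx58, Psmb9, Bst2, Oasl2, Trim25, Parp14, Tap1, Stat2 and Dtx3l fell in both arms, Dhx58 by 1.33 ± 0.23 and 1.11 ± 0.23. Macrophage markers moved alike: 9 of 13 fell with the bursa removed and 11 of 13 with it intact, and their sum at day 14 was 2018 to 3375 CPM removed and 2230 to 3034 CPM intact. Whether they bear on the members' fall was not tested.

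Removing the bursa is the treatment the study set out to compare, and edgeR called no member for it at either day. At day 3, 0 of 34 members and 0.0% of 16183 features passed, 0 members had an unadjusted p under 0.05 in edgeR, and 1274 features did. At day 14, 0 of 34 members and 0.0% of features passed, again with 0 members at an unadjusted p under 0.05 and with 202 such features. DESeq2 called 0 members at either day, with 1 member at an unadjusted p under 0.05 at day 3 and 0 at day 14, and an edgeR fit of the 2 groups alone called 0, with 2 and 0. In the authors' deposited table for day 3, 8 of 40 members had an unadjusted p under 0.05 (Cxcl9, Mx2, Bst2, Mx1, Ifi27, Oasl, Rsad2 and Irf7), each higher with the bursa removed, where 1253 of 18572 genes had one. In that table of the authors, the deposited adjusted p was under 0.05 for 0 members and 0.442% of genes, and it was left blank for 21 of the 40 members and 57.3% of genes, among them Cxcl9 (p = 0.00281 in the authors' deposited table). For day 14, 0 of 40 members had in the authors' deposited table an unadjusted or adjusted p under 0.05, where 302 genes had an unadjusted one and 0.0108% of genes passed. Removed minus intact, Mx1 had a log2 fold change of 0.78 ± 0.50 (adjusted p = 0.645) at day 3 and -0.52 ± 0.52 (adjusted p = 1.0) at day 14. Its day 3 difference was larger than its standard error and still went uncalled. The smallest difference that could have been called was not worked out, so the absence of calls does not exclude differences of this size or larger. Irf7 had 0.37 ± 0.35 (adjusted p = 0.759) and -0.25 ± 0.36 (adjusted p = 1.0), Cxcl10 0.22 ± 0.42 (adjusted p = 0.898) and 0.38 ± 0.46 (adjusted p = 1.0), Irf8 0.10 ± 0.18 (adjusted p = 0.889) and 0.01 ± 0.19 (adjusted p = 1.0), and Psmb8 0.16 ± 0.18 (adjusted p = 0.811) and -0.06 ± 0.18 (adjusted p = 1.0). At day 3, 28 of 34 fold changes were above 0 with a median of 0.14, and at day 14, 10 of 34 were above 0 with a median of -0.07. Over all 16183 features, 8062 were above 0 at day 3 (median -0.001) and 8305 at day 14 (median 0.003). Removed and intact values overlapped for every tested member at both days. Of features, 0.0742% were higher and 0.192% lower without overlap at day 3, and 0.0433% and 0.0371% at day 14.

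Control bursa was set beside control tendon to show where the members stood before injury. Of 34 members 15 were higher in bursa and none lower, with 51.4% of 17041 features called and 29.3% higher, and the median log2 difference was 0.97. Rsad2 differed most, at 13.7 ± 5.35 CPM in bursa and 1.97 ± 1.01 CPM in tendon (SD, n = 5 each; log2 2.82 ± 0.79, adjusted p = 0.0029). Cxcl9 (2.57 ± 0.40, adjusted p = 7.8e-07), Oasl (1.86 ± 0.72, adjusted p = 0.0286) and Irf8 (1.82 ± 0.23, adjusted p = 1.83e-08) followed, all without overlap. Ddx58 (1.30 ± 0.48), Dtx3l (1.30 ± 0.25), Trim25, a ubiquitin ligase that acts on RIG-I (1.14 ± 0.19), Psmb8 (1.11 ± 0.29, adjusted p = 0.00132), Psmb9 (1.06 ± 0.27) and Irf1 (0.89 ± 0.23) were higher in bursa too. Mx1 (1.78 ± 0.97, adjusted p = 0.122), Irf7 (1.22 ± 0.64, adjusted p = 0.108) and Cxcl10 (1.42 ± 1.09, adjusted p = 0.286) were not called.

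The fit shared its spread with the injured libraries, and without replicate 6 of the day 14 bursa 27 members were higher in control bursa and none lower, Mx1 and Irf7 among them, with 51.8% of features called. Oasl lost its call without bursa replicate 5 or tendon replicate 2, 4 or 5, and Ddx58 without tendon replicate 1. Control bursa replicate 5 held the highest value of its group for 28 of 34 members, against 18.3% of features. Of cell markers, 8 of 13 macrophage genes were higher in control bursa and 2 lower, 7 of 9 T and NK cell genes were higher, and all 8 muscle genes were lower. Their part in the difference was not tested.

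**Figure D5:**
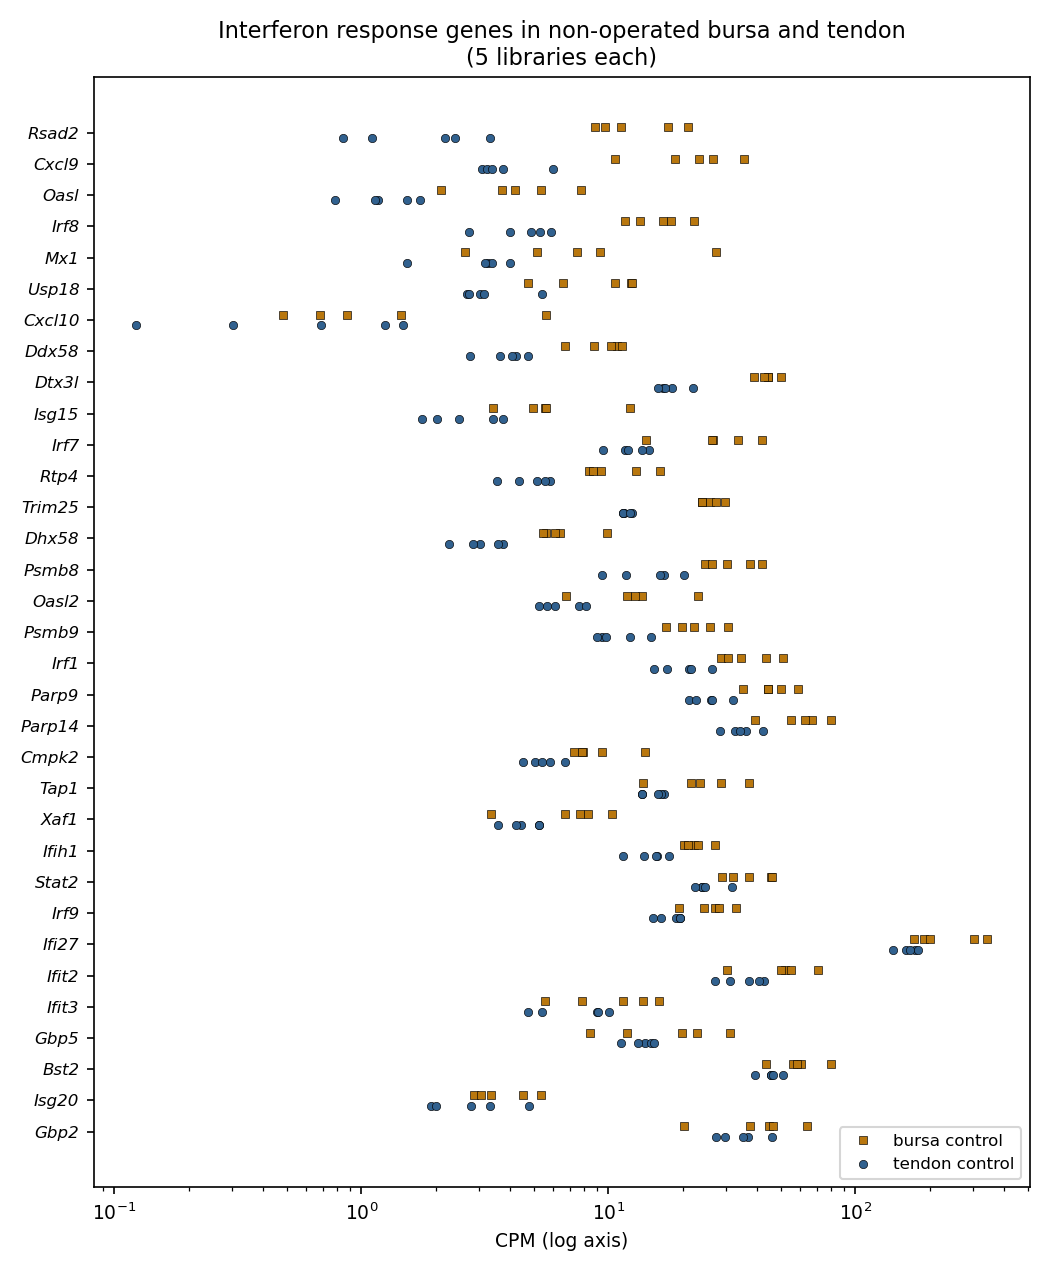
Each line is 1 tested member other than Cxcl11, which was close to 0, with CPM on a log x axis, orange squares for the 5 control bursae and blue circles for the 5 control tendons, ordered by the log2 difference. The squares lie to the right of all circles for 15 of 34 tested members (14.7% of all features do so), and the difference is largest for Rsad2.

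A test of the difference between responses compared the injured bursa's change from its control with that of the tendon with the bursa intact. At day 3, 1 of 34 members differed, with 24.3% of features called and 14.5% lower: Irf8 rose less in bursa than in tendon (log2 difference of the responses -1.09 ± 0.30, adjusted p = 0.00595). It was called in every alternative run, but no replicate block was run across tissues. Mx1 (-0.79 ± 1.24, adjusted p = 0.7), Irf7 (-0.18 ± 0.85, adjusted p = 0.909), Cxcl10 (-0.18 ± 1.32, adjusted p = 0.945) and Psmb8 (-0.59 ± 0.38, adjusted p = 0.274) were not called. Trim25 was called as well (-0.39 ± 0.14) without replicate 6 of the day 14 bursa, where 24.6% of features were. Irf8 started higher in control bursa, at 16.4 ± 4.11 CPM, than in control tendon, at 4.56 ± 1.23 CPM (n = 5 each), and at day 3 it was at 62.8 ± 5.22 CPM in bursa and 37.9 ± 7.77 CPM in tendon (n = 6 each).

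At day 14, 18 of 34 members had a higher response in bursa and none a lower one, with 34.9% of features called and 15.5% higher. Without replicate 6, 6 remained called: Cmpk2 (1.54 ± 0.41), Irf7 (1.33 ± 0.53), Cxcl9 (2.22 ± 0.40), Isg20 (1.35 ± 0.34), Gbp5 (1.08 ± 0.32) and Bst2 (1.17 ± 0.25), with 32.3% of features called. With all libraries the same 6 had 3.69 ± 0.82, 3.43 ± 0.87, 2.88 ± 0.52, 2.73 ± 0.62, 2.46 ± 0.61 and 1.79 ± 0.39. Without replicate 6, only Cxcl9 of the 6 was called higher in day 14 bursa than in control bursa, and Isg20 was called lower. Isg20 was at 2.52 ± 0.40 CPM there and 3.82 ± 1.07 CPM in control bursa (SD, n = 5 each), so its higher response was a smaller fall. Of cell markers, 7 of 9 adipocyte and 4 of 8 muscle genes also had a higher response in bursa, and 6 of 8 cell division genes a lower one. In 4 of the 6 members, Cmpk2, Isg20, Gbp5 and Bst2, tendon had fallen below its control at day 14, where muscle RNA was also lower. The part of these cell types in the members' differences was not tested. Cxcl11 (6.73 ± 2.25), Cxcl10 (4.46 ± 1.48, adjusted p = 0.0173), Mx1 (3.83 ± 1.28, adjusted p = 0.0181), Ifit3 (3.71 ± 0.99) and Isg15 (3.20 ± 1.15) lost their calls without replicate 6, at 2.98 ± 1.32, 0.77 ± 0.81, 0.45 ± 0.82, 0.82 ± 0.50 and 0.20 ± 0.72. Cxcl11 also lost its call without tendon control replicate 3, and Cxcl10 without tendon control replicate 4. Irf8 (0.27 ± 0.30, adjusted p = 0.51) and Psmb8 (0.59 ± 0.38, adjusted p = 0.236) were not called.

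Ligands, receptors and signalling genes of the pathway were read from a list of 33, of which 21 had counts and were tested. The interferon genes themselves were at or near 0: in the authors' deposited tables the mean normalized count of Ifna1, Ifna4, Ifna5, Ifnk, Ifnl1 and Ifnl3 was 0.0 in all 11 comparisons, that of Ifnb1 at most 0.103, of Ifng at most 0.411 and of Ifne at most 0.634. At day 3 14 of 21 signalling genes rose in bursa and 1 fell, 16 rose and 3 fell in tendon with the bursa removed, and 16 rose and 2 fell in tendon with it intact, where 22.3%, 29.8% and 31.0% of all features were higher. The kinase Jak2 rose by 1.89 ± 0.18 in bursa, 1.67 ± 0.11 in tendon with the bursa removed and 1.81 ± 0.11 with it intact, and the receptor Ifnar1 by 0.64 ± 0.08, 0.86 ± 0.10 and 0.96 ± 0.10. Mavs, the mitochondrial adaptor of the RNA sensors, fell by 0.52 ± 0.09, 1.00 ± 0.14 and 1.10 ± 0.14. At day 14 9 of 21 rose in bursa and none fell, where 9.41% of features were higher, and in tendon 13 rose and 2 fell in each arm, where 32.6% were higher with the bursa removed and 33.2% with it intact. Without replicate 6 of the day 14 bursa, 15 rose and 1 fell in bursa at day 3, and 8 rose and none fell at day 14. None differed between tendons with the bursa removed and intact at either day.

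For the members without counts of their own, the authors' deposited tables give the only values, with log2 fold changes there given as control over injured. In the authors' deposited table for tendon at day 3, Oas2, an oligoadenylate synthetase, had -2.44 ± 0.71 (adjusted p = 0.00161) with the bursa removed and, in its own table, -2.17 ± 0.56 (adjusted p = 0.00025) with it intact, so it was higher after injury. Oas1a was at -1.08 ± 0.48 (adjusted p = 0.0462) and Zbp1, a sensor of Z-form nucleic acid, at -0.999 ± 0.42 (adjusted p = 0.0307) in the authors' deposited table for day 3 with the bursa removed. Mx2 was at 1.19 ± 0.36 (adjusted p = 0.0022) in the authors' deposited table for day 14 with the bursa removed, so it was lower after injury, and Ifi44 passed in none of them. In bursa at day 3 the authors' deposited table gave Oas2 at -1.36 ± 0.47 (adjusted p = 0.0117), and at day 14 it gave all 5 as higher after injury (Oas2 -3.48 ± 0.84, Zbp1 -3.38 ± 0.94, Mx2 -2.62 ± 0.94, Oas1a -2.52 ± 0.87 and Ifi44 -1.41 ± 0.60) with the p-value left blank.

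In the authors' deposited tables for tendon, 22 of 40 members were higher and 3 lower at day 3 with the bursa removed than in control, at an adjusted p under 0.05, where 25.2% of genes were higher and 25.0% lower. For day 3 with it intact, the authors' deposited table gave 19 higher and 5 lower, where 27.1% of genes were higher and 27.1% lower. At day 14 the authors' deposited tables gave 4 higher and 7 lower with the bursa removed (26.9% of genes in each direction) and 5 higher and 6 lower with it intact (27.4% in each direction).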

How the data were processed

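RNA was read as poly(A) libraries from 46 rat bursa and tendon samples, and reads were assigned to transcripts with kallisto 0.44.0 after bcl2fastq 2.19, per the submitters' processing notes. Neither label nor header names a genome build or transcript set, which were thus not given in the sources used here. Estimated counts by the authors make up the deposited count table per transcript (31715 transcripts, without gene symbols), here rounded to whole numbers. The authors' deposited DESeq2 tables hold, per the file headers, a mean normalized count signal, a log2 fold change, its Wald score and p-values for 11 pairs of groups. That fold change is the second-named over the first-named group, checked against the counts (r = -0.9978 across 130804 values, genes not being independent).

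Symbols were joined to transcripts by their mean normalized counts: a symbol was matched where 1 to 3 transcripts gave its deposited mean in all tables, within 0.5 normalized counts or 1% for 1 transcript. This named 15478 of 23747 symbols and 92.7% of counts (90.7 to 96.9% per library), and 92.9% of symbols with a mean of 50 or more. A gene may hold further transcripts that this join leaves out. The members and lists were chosen with earlier results of these data known.

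Levels are CPM (counts scaled to a common total) after TMM scaling over 46 libraries. Tests were edgeR 4.0.16 quasi-likelihood fits (R 4.3.3; TMM, filterByExpr, robust), 1 for bursa, 1 for tendon and 1 for both tissues, with Benjamini-Hochberg adjustment over all features and a call at an adjusted p under 0.05. Standard errors are the fold change over the square root of F. The scripts were tested on simulated data. Alternatives were DESeq2 1.42.0, RLE scaling, no filter, a replicate block, the 2 groups alone and each library left out. The block and the fit of 2 groups alone were run only within a tissue, not for comparisons across tissues. Leaving out replicate 6 of the day 14 bursa in comparisons without that group, and in the counts of other gene lists, was chosen after seeing the data. Same-numbered libraries were compared by correlations of deviations from the group means. Day 14 tendons with the bursa removed and intact had r over 0.1 in all 6 pairs (r 0.105 to 0.339), and so did day 3 bursa and tendon with the bursa intact (0.12 to 0.207). Day 3 bursa and tendon with the bursa removed had it in 5 of 6. Day 14 bursa had it in 3 of 6 with intact and 5 of 6 with removed tendon, and control bursa and tendon in 2 of 5 (r -0.154 to 0.194). The same-numbered library was the best match in 6 of 6 for day 14 removed and intact tendon and 4 of 6 at day 3. For day 3 bursa it was so in 5 of 6 with intact and 3 of 6 with removed tendon. For day 14 bursa it was so in 4 of 6 with either tendon, and for controls in 1 of 5. Whether such libraries share a rat is not given, and the main fits treated them as independent. In full statistics are named up to 10 called members with the largest change in a comparison, and Mx1, Irf7, Cxcl10, Irf8 and Psmb8 in each. Levels are followed over the groups for 14 members, those 5, Isg15 and the highest of each role. They are mostly the lowest, median and highest of an operated group and the single values or range of a control group. Some are given as medians only.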

Additional observations from a re-analysis of the deposited data

Results flagged for a closer look

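The values of 14 members in the 8 groups were searched for a library far from the others of its group, and 22 of 112 gene and group pairs held one. The cut-off used would flag about 1 in 20 groups by chance if values were normally spread. CPM values need not be, and all 22 flagged values were the highest of their group, so that chance rate is only a rough guide. Values of 1 library are also not independent of each other. In the day 14 bursa, replicate 6 stood apart for 13 of the 14: Mx1 (1456 CPM), Irf7 (1142 CPM), Ifit2 (710.0 CPM), Gbp2 (583.6 CPM), Ifi27 (567.3 CPM), Parp14 (375.4 CPM), Cxcl9 (366.3 CPM), Isg15 (350.5 CPM), Oasl2 (315.7 CPM), Stat2 (285.4 CPM), Cxcl10 (241.0 CPM), Psmb8 (163.8 CPM) and Ifih1 (152.9 CPM). Irf8 was the exception. That library was named for its own Mx1 level, so its place in Mx1 was fixed by that choice and the chance rate does not apply to it. In control bursa, replicate 5 was far above the others for Mx1 (27.28 CPM), Isg15 (12.29 CPM) and Cxcl10 (5.616 CPM).

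In tendon at day 14 with the bursa intact, replicate 6 was far above the others for Parp14 (53.67 CPM), Oasl2 (18.75 CPM) and Isg15 (10.04 CPM). In bursa at day 3, replicate 1 was far above for Cxcl10 (16.23 CPM). In control tendon, replicate 3 was far above for Stat2 (31.79 CPM) and replicate 1 for Cxcl9 (5.952 CPM).

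Responses to injury differed between bursa and tendon with the bursa intact, by the test of the difference itself in edgeR. At day 3 this was so for Irf8 (-1.09 on the log2 scale, bursa minus tendon). At day 14 the members named were Cxcl11 (6.73), Cxcl10 (4.46), Mx1 (3.83), Ifit3 (3.71), Cmpk2 (3.69), Irf7 (3.43), Isg15 (3.20), Cxcl9 (2.88), Isg20 (2.73) and Gbp5 (2.46), and Cmpk2, Irf7, Cxcl9, Isg20 and Gbp5 of these kept the call without replicate 6 of the day 14 bursa.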

How the results depend on the processing

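Of 2349 alternatives of the 138 gene results, 2193 kept their direction and side of the threshold, 117 lost a call, 12 gained one and 27 changed sign, none of these in a called value; 26 of the lost calls came from other settings than leaving out a library. DESeq2 left the adjusted p blank for 18 gene results, counted as neither. With RLE scaling and with no filter on low counts, every count of called members stayed within 1.5 times. In day 3 bursa against control, the 2 groups fitted alone gave 7 called members in place of 2. In day 14 bursa against control (7), DESeq2 gave 4 with 22 members blank, a replicate block 2 and the 2 groups alone 2. In bursa at day 14 against day 3 (5), DESeq2 gave 1 with 22 blank, a replicate block 0 and the 2 groups alone 2, and Cxcl10 turned to -0.43 with the block. The cause was not tested.

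Leaving out single libraries gave 2 to 11 called members in day 3 bursa against control, 2 to 9 in day 14 bursa against control, 1 to 11 at day 14 against day 3, 11 to 27 between control tissues, 1 to 2 in the day 3 and 6 to 26 in the day 14 difference of responses. The ranges in tendon were within 1.5 times. Shares of all features called are given only for refits without replicate 6 of the day 14 bursa. Whether counts of the other alternatives moved with the whole fit is thus not shown. Log2 values that changed sign, none of them called, spanned -0.35 to 0.007 for Irf7 in day 3 bursa, -1.15 to 3.12 for Cxcl10 and -0.25 to 0.017 for Irf8 in bursa between days, -0.24 to 0.086 for Irf7 in day 3 tendon with the bursa intact, -0.36 to 0.36 for Cxcl10 in day 14 tendon with it intact, -0.16 to 0.43 for Mx1 in day 14 tendon with it removed, and -0.65 to 0.93 for Cxcl10 in the day 3 difference of responses. Between removed and intact tendons of day 14 they spanned -0.95 to 0.077 for Mx1, -0.53 to 0.18 for Irf7, -0.086 to 0.17 for Irf8 and -0.16 to 0.015 for Psmb8.

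With the replicate number as a block, removed against intact tendon still had 0 called members at day 3 and at day 14. The block also brought a call for Psmb8 (0.30) with the bursa intact and for Irf7 (-0.85) with it removed at day 14 against control, and lost those of Mx1, Irf7, Cxcl10, Oasl2 and Stat2 in day 14 bursa against control. At day 3, 4 of 6 same-numbered pairs of removed and intact tendon had r over 0.1 (0.052 to 0.43 over the 6). The labels do not say whether a shared number stands for 1 rat. Cxcl11 and Ifit1 were near 0 in most libraries, which limits what their values can show. Ifit1 had 5 counts even in replicate 6 of the day 14 bursa, the library with the most counts. The part of depth in these low values was not tested. A transcript that could not be named is missing from a gene's level.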

Other observations

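Among 50 other interferon-stimulated genes, 44 had counts. At day 3, 24 of 43 rose and 4 fell in tendon with the bursa removed, and 22 rose and 5 fell with it intact. At day 14, 13 rose and 11 fell with the bursa removed, and 13 rose and 14 fell with it intact, and from day 3 to day 14, 26 fell with the bursa removed and 24 with it intact, with none higher. In bursa, 7 of 44 rose and 2 fell at day 3, and 11 rose and none fell at day 14. Control bursa stood above control tendon for 22 of 44 and below it for 1. Without replicate 6 of the day 14 bursa, which held the highest of 46 values for 40 of these 44 genes, 18 rose and 4 fell in bursa at day 3, 6 rose and none fell at day 14, and control bursa stood above control tendon for 33 and below it for 1. The shares of all features called in these comparisons are those given beside the members' counts.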
